A study of Homo sapiens with 24 samples.

Results

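Transcription factors that mark mesenchymal cells were followed by their rows in a table of gene expression: SNAI1, SNAI2, TWIST1, TWIST2, ZEB1, ZEB2, PRRX1, MEOX1, RUNX1 and RUNX2, 10 of 60564 rows, chosen by gene symbol. The table came from RNA sequencing of the neuroblastoma cell lines SK-N-BE(2), a MYCN-amplified line, and SH-SY5Y, in which NDUFS6, a nuclear-encoded subunit of mitochondrial complex I, was depleted or raised. The comparisons ask how these factors' transcripts stand after loss or gain of NDUFS6 in each line, and whether the lines differ. In each line 4 groups of 3 libraries were made, 24 libraries in all. The knockdown group carried lentivirus with a short hairpin RNA against NDUFS6, and its control carried the matching empty vector. The overexpression group carried lentivirus bearing the whole NDUFS6 coding sequence, and its control carried that construct's empty vector. Every group, the controls included, had therefore been infected and selected with puromycin for about a week, and each is a selected culture of 1 line. Within a group the 3 libraries are labelled as biological replicates, and all 24 carry the same batch. No source used here says whether each had its own infection or which hairpin it carried. The p-values therefore rest on library-to-library spread, part of which may be technical.

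SNAI1 (Snail) and SNAI2 (Slug) are zinc-finger repressors, ZEB1 and ZEB2 are zinc-finger and homeodomain repressors, and TWIST1 and TWIST2 are basic helix-loop-helix factors. All bind E-box sequences in DNA and are known from the epithelial-to-mesenchymal transition and from neural crest, the embryonic source of neuroblastoma. Neuroblastoma cells can take an adrenergic, neuron-like state or a mesenchymal state. PRRX1 is a homeobox factor that can drive the mesenchymal one, MEOX1 is a homeobox factor of the somites, and RUNX1 and RUNX2 are Runt-domain factors of blood and bone.

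Promoter windows from RefSeq (GRCh38.p14) cover 250 bases before and 50 after an annotated start and were found for 6 of the 10 factors. They are shown for TWIST2 and ZEB1, because each passed the test in 3 of the 4 comparisons of a construct with its empty vector. TWIST1 and SNAI1 met the same rule and are named only. The capitals mark CCAAT in TWIST2, and CANNTG in ZEB1, the E-box core that also holds CACCTG, here on the opposite strand. ZEB1 has 7 annotated windows, of which the most upstream is printed.
TWIST2, chr2:238847835-238848134, plus strand: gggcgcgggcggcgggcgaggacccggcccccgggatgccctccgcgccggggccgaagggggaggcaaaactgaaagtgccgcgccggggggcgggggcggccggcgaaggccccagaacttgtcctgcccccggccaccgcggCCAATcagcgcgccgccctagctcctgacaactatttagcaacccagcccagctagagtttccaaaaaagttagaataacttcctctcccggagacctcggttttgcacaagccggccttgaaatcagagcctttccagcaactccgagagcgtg
ZEB1, chr10:31318167-31318466, plus strand: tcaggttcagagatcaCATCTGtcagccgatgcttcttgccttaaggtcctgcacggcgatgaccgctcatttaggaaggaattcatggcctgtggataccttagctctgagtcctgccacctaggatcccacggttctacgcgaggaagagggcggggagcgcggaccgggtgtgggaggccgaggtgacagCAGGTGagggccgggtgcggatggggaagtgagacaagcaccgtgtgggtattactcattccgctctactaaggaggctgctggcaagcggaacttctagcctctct
Both strands were searched for the E-box cores CACCTG and CANNTG, the AP-1 site TGAGTCA and the RUNX core TGTGGT, and CCAAT was added after the sequences had been seen. The TWIST2 window held 1 CCAAT and none of the other 4 letter patterns, and its GC content was 66.7%. The ZEB1 window held 1 CACCTG and 2 CANNTG, the first lying within the second, and its GC content was 58.3%. Of the 7 ZEB1 windows, 2 held CACCTG, 4 held CANNTG and 2 held TGTGGT. Among all 35116 windows of this length, 20.6% held CACCTG, 68.7% CANNTG, 4.95% TGAGTCA, 13.1% TGTGGT and 34.6% CCAAT. A match is a description of the letters, not a bound site.

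Values are FPKM, fragments scaled to gene length and library size, as the authors deposited them, so levels of different genes can be set side by side. NDUFS6 itself ran with its labels. It fell to 1.09 to 1.61 FPKM in SK-N-BE(2) knockdown, against 9.29 to 12.2 FPKM in its control, and to 3.11 to 4.98 FPKM in SH-SY5Y knockdown, against 11.1 to 12.1 FPKM. It reached 14.9 to 18.9 FPKM in SK-N-BE(2) overexpression, against 11.9 to 13.9 FPKM, and 199 to 214 FPKM in SH-SY5Y overexpression, against 10.2 to 11.5 FPKM. The constructs thus moved NDUFS6 unequally in the lines. Ratios of means to the control were 0.12 and 0.35 for knockdown in SK-N-BE(2) and SH-SY5Y, and 1.34 and 19.0 for overexpression. The 8 neuroblastoma markers checked, HAND2 among them, were present in both lines. Their summed level was 468 to 591 FPKM in SK-N-BE(2) knockdown, against 1010 to 1030 FPKM in its control. It was 712 to 733 FPKM in SH-SY5Y knockdown, against 955 to 968 FPKM. The empty vectors differed as well, with 1140 to 1240 FPKM in the overexpression control of SK-N-BE(2) and 1420 to 1450 FPKM in that of SH-SY5Y. The sum does not show each marker, and ISL1, 1 of the 8, was higher in SH-SY5Y knockdown. FPKM sums lay between 249708 and 276091 per library, and no source used here gives the number of reads.

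Factors were tested where a gene reached at least 1 FPKM in at least 3 libraries, which 15903 genes did. SNAI1, SNAI2, TWIST1, TWIST2, ZEB1 and ZEB2 passed, and TWIST2 passed only through the 3 groups in which it was high, so its differences there had in part to arise. PRRX1, MEOX1, RUNX1 and RUNX2 did not pass. Changes are differences of group means of log2(FPKM + 1), a scale that makes changes of low genes look smaller than they are, and a gene was called at a limma adjusted p under 0.05. RNA came from whole cultures, so fewer cells of a type and less RNA per cell cannot be told apart.

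**Figure D1:**
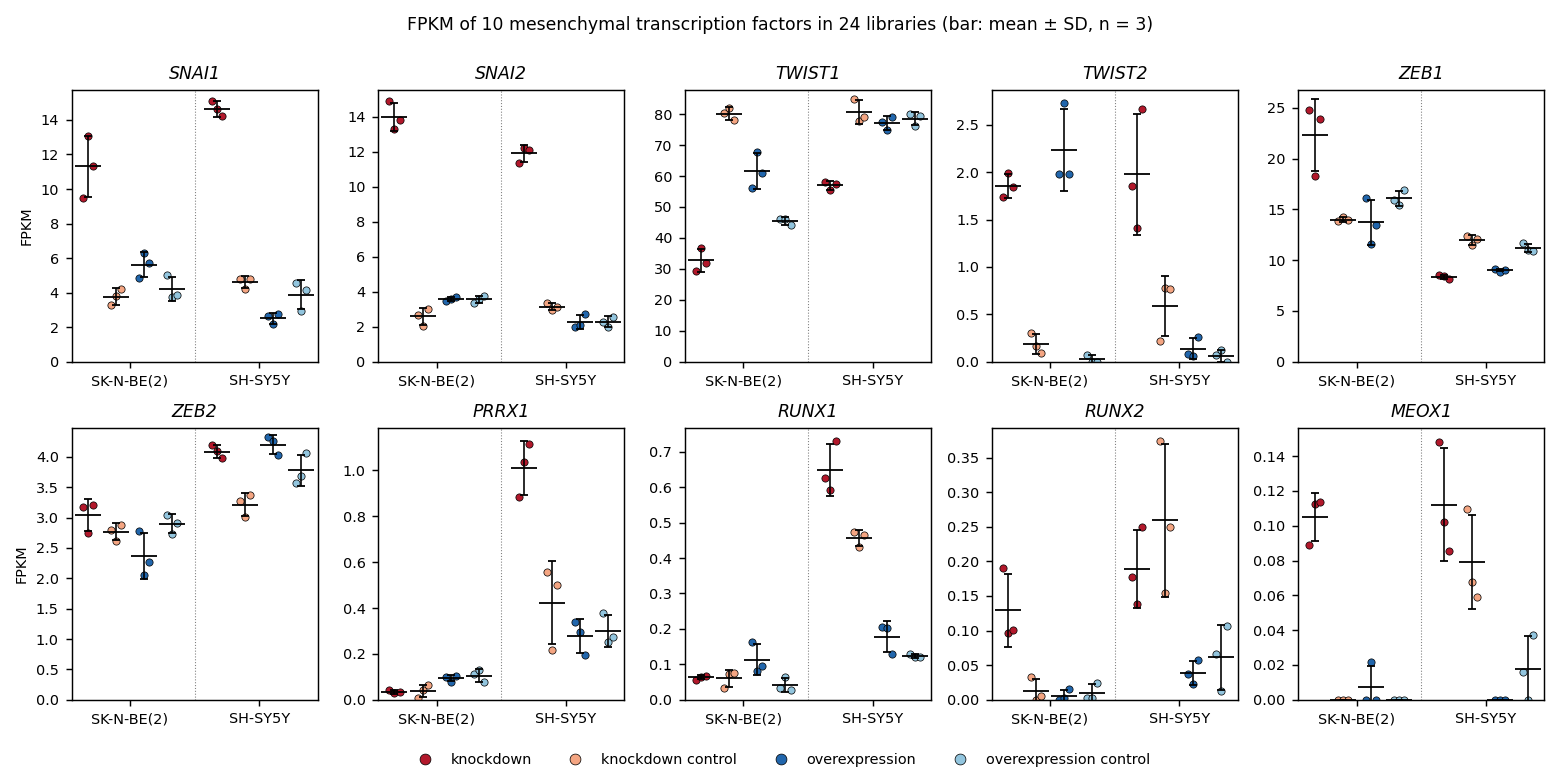
FPKM of each of the 10 factors (vertical axes, own scale) in the 24 libraries, by line, with knockdown, knockdown control, overexpression and overexpression control from left to right in each line. Points are libraries and bars are the mean and SD of 3. SNAI1 and SNAI2 stand above all other libraries in both knockdown groups, TWIST1 is lowest in SK-N-BE(2) knockdown, and TWIST2 is at 1.41 FPKM or more in 3 groups and at 0.782 FPKM or less in the other 5.

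Knockdown of NDUFS6 in SK-N-BE(2) went with higher SNAI1, SNAI2, TWIST2 and ZEB1 and with lower TWIST1. Of the 6 tested factors 4 rose, where 27.4% of all tested genes rose, and 1 fell, where 28.3% of all genes fell. In SH-SY5Y 4 rose, where 26.3% of all genes did, and 2 fell, where 29.6% did. There SNAI1, SNAI2, TWIST2 and ZEB2 rose, and TWIST1 and ZEB1 fell. TWIST2 passed the filter only through groups in which it was high, both knockdowns among them. It is in these counts and medians but adds no evidence to them. The median change of the 6 was 0.95 in SK-N-BE(2) and 0.59 in SH-SY5Y, against -0.01 over all tested genes in each. TWIST2 helped set both medians. Without it the middle change was that of ZEB1, 0.63, in SK-N-BE(2) and that of ZEB2, 0.27, in SH-SY5Y.

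SNAI2, the zinc-finger repressor known for its part in neural crest migration, had the largest change of the 6 on the log2(FPKM + 1) scale in both knockdowns. It was at 14.9, 13.3 and 13.8 FPKM in SK-N-BE(2) knockdown, against 2.69, 2.03 and 3.04 FPKM in its control. In SH-SY5Y knockdown it was at 11.4, 12.2 and 12.1 FPKM, against 3.34, 2.98 and 3.13 FPKM in its control. Every knockdown library lay above every other library of the series. The SK-N-BE(2) rise was 2.07, a 5.41-fold ratio of means (SE 0.0914, limma adjusted p = 2.31e-13). The SH-SY5Y rise was 1.64, a 3.78-fold ratio (adjusted p = 5.72e-12). The rise was 0.44 larger in SK-N-BE(2) (interval 0.16 to 0.71, limma adjusted p = 0.00743). That order rested on the control: with the overexpression controls as the base the rises were 1.72 and 1.98, and their difference was -0.26 and did not pass (adjusted p = 0.0920).

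SNAI1, its paralogue and a repressor of the cadherin gene CDH1, followed the same pattern. SK-N-BE(2) knockdown gave 9.51, 13.1 and 11.4 FPKM, against 3.29, 3.82 and 4.22 FPKM in its control. SH-SY5Y knockdown gave 15.1, 14.6 and 14.2 FPKM, against 4.81, 4.24 and 4.81 FPKM in its control. Here too the 6 knockdown libraries lay above the other 18. The rises were 1.36 (SE 0.126, limma adjusted p = 1.61e-08) and 1.48 (SE 0.126, adjusted p = 3.87e-09), ratios of 3.0 and 3.17. The difference of SK-N-BE(2) from SH-SY5Y was -0.12, with an interval from -0.49 to 0.26, and did not pass the test (limma adjusted p = 0.608). With the overexpression controls as the base it was -0.46 and passed (adjusted p = 0.0378).

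TWIST1, needed in cranial neural crest and the most abundant of the 10 factors in every library, moved the other way. SK-N-BE(2) knockdown had 29.5, 36.8 and 32.0 FPKM, against 80.3, 82.1 and 78.0 FPKM in its control. SH-SY5Y knockdown had 58.1, 55.4 and 57.5 FPKM, against 85.0, 77.9 and 78.9 FPKM in its control. No knockdown library reached the lowest library of its own control. The SK-N-BE(2) change was -1.27 and the SH-SY5Y change -0.49, each with an SE of 0.0654 (limma adjusted p = 2.29e-12 and 2.01e-06). The 2 changes differed by -0.78 (limma adjusted p = 5.12e-07). The size in SK-N-BE(2) depended on the control: against the line's other empty vector, at 46.1, 46.3 and 44.1 FPKM, the change was -0.47 (limma adjusted p = 5.87e-06). On that base SH-SY5Y was at -0.46, and the difference between the lines was -0.01 (interval -0.20 to 0.18, adjusted p = 0.928).

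TWIST2, the paralogue of TWIST1 with a known part in the dermis, was low in most libraries. It was at 1.74, 1.99 and 1.84 FPKM in SK-N-BE(2) knockdown, against 0.308, 0.167 and 0.0946 FPKM in its control. In SH-SY5Y knockdown it was at 1.86, 1.41 and 2.66 FPKM, against 0.224, 0.782 and 0.762 FPKM in its control. The groups did not overlap in either line. TWIST2 passed the filter only through groups in which it was high, both knockdowns among them. These gaps and the p-values of its rises had therefore in part to arise. Its rise was 1.27 in SK-N-BE(2) and 0.90 in SH-SY5Y, each with an SE of 0.144 (limma adjusted p = 2.98e-07 and 2.02e-05). Their difference was 0.36, with an interval from -0.07 to 0.79, and did not pass the test (limma adjusted p = 0.142). It passed without SH-SY5Y knockdown replicate 3, at 0.52 (adjusted p = 0.0280), or without that line's knockdown control replicate 1, at 0.54 (adjusted p = 0.0190).

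ZEB1, a repressor of CDH1 and of the miR-200 microRNAs, went in opposite directions in the lines. It was at 24.8, 18.3 and 23.9 FPKM in SK-N-BE(2) knockdown, against 13.8, 14.2 and 13.9 FPKM in its control. In SH-SY5Y knockdown it was at 8.49, 8.40 and 8.16 FPKM, against 12.4, 11.5 and 12.1 FPKM in its control. The groups were apart in both lines. ZEB1 rose by 0.63 in the first line (SE 0.0906, limma adjusted p = 6.87e-06) and fell by 0.47 in the second (adjusted p = 0.000158). The changes differed by 1.10 (limma adjusted p = 4.01e-07). Against each line's other empty vector the changes were 0.44 and -0.38, and their difference of 0.82 passed (limma adjusted p = 1.69e-05).

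ZEB2, known for its part in neural crest and its derivatives, moved least. SH-SY5Y knockdown had 4.19, 4.09 and 3.97 FPKM, against 3.27, 3.0 and 3.37 FPKM in its control, with no overlap. That rise was 0.27 (SE 0.0682, limma adjusted p = 0.00196). With the overexpression control as the base, at 3.57 to 4.06 FPKM, the change was 0.09 and did not pass (limma adjusted p = 0.265). ZEB2 averaged 3.04 ± 0.27 FPKM in SK-N-BE(2) knockdown and 2.76 ± 0.14 FPKM in its control (SD, n = 3 each), a change of 0.10 with an interval from -0.04 to 0.24 that did not pass (limma adjusted p = 0.217). The change of SK-N-BE(2) less that of SH-SY5Y was -0.17 (interval -0.37 to 0.03, limma adjusted p = 0.143).

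**Figure D2:**
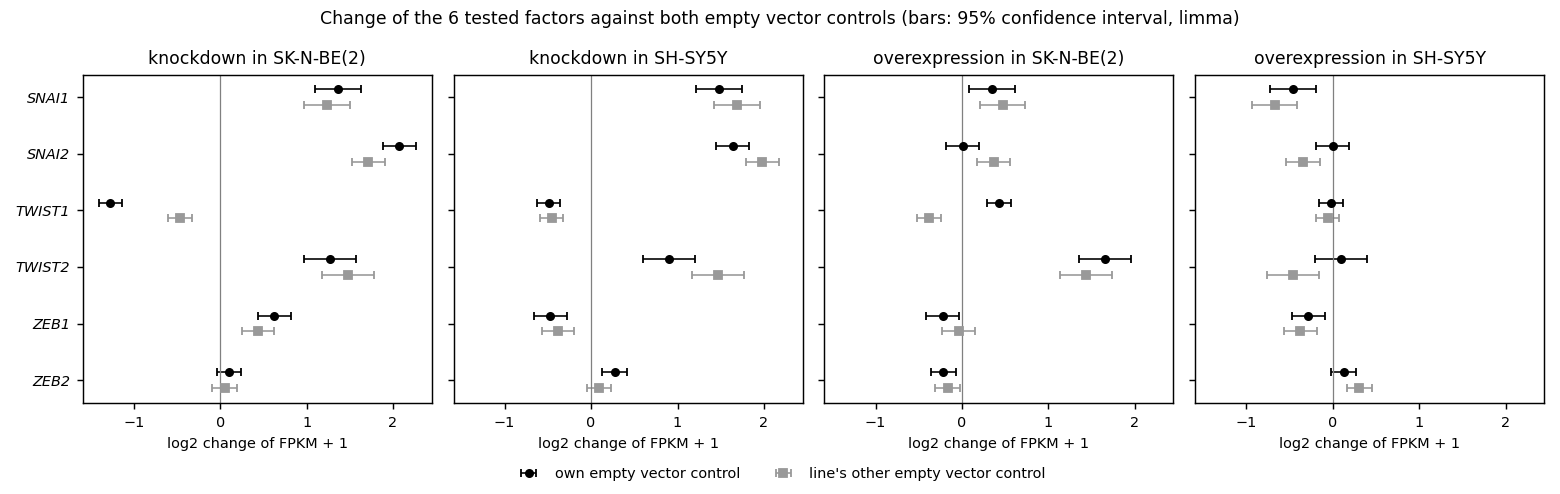
Change of the 6 tested factors on the log2(FPKM + 1) scale (horizontal axes) in the 4 construct comparisons, against the construct's own empty vector control (black) and the line's other one (grey), with 95% confidence intervals from limma. SNAI1 and SNAI2 lie at 1.24 or more in both knockdowns whichever control is used, while TWIST1 in SK-N-BE(2) overexpression is at 0.42 with one control and at -0.38 with the other.

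Set side by side, the libraries fell into clusters, so no correlation over them is given for pairs of factors. The 6 knockdown libraries had both SNAI2 and SNAI1 high. TWIST1 was at 36.8 FPKM or less in the SK-N-BE(2) knockdown libraries and at 55.4 to 58.1 FPKM in the SH-SY5Y ones. The overexpression control of SK-N-BE(2) joined low TWIST1, at 44.1 to 46.3 FPKM, with SNAI2 of only 3.37 to 3.77 FPKM.

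**Figure D3:**
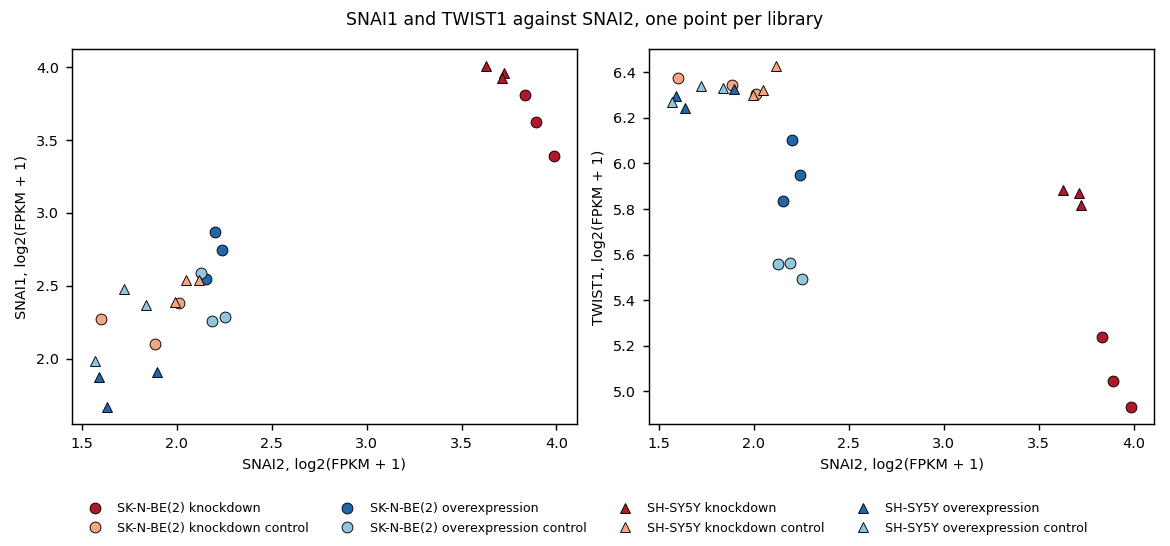
SNAI1 (left) and TWIST1 (right) against SNAI2, all as log2(FPKM + 1), with 1 point per library, circles for SK-N-BE(2) and triangles for SH-SY5Y. The 6 knockdown libraries stand apart at high SNAI2, and low TWIST1 is also seen at low SNAI2 in the SK-N-BE(2) overexpression control.

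Against the own controls, overexpression had fewer factors past the threshold than knockdown in each line, and fewer of all tested genes too. Of 15902 genes, 4715 were called in SK-N-BE(2) and 5185 in SH-SY5Y overexpression, against 8854 and 8899 in knockdown. Against each line's other empty vector, knockdown and overexpression had 5 and 4 factors called in SK-N-BE(2), and 5 and 5 in SH-SY5Y. In SK-N-BE(2) 3 of the 6 tested factors rose, TWIST2, TWIST1 and SNAI1, where 12.9% of all tested genes rose, and ZEB2 fell, where 16.8% of all genes fell. TWIST2, which passed the filter partly through this group, adds no evidence to the count. In SH-SY5Y 2 fell, SNAI1 and ZEB1, where 17.2% of all genes fell. The limma count of factors that rose there was 0, also at an unadjusted p under 0.05, where 15.4% of all genes rose. The medians of the 6 were 0.18 and -0.01, against -0.01 over all genes in each. Without TWIST2 the middle change in SK-N-BE(2) was that of SNAI2, 0.01.

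TWIST2 in SK-N-BE(2) overexpression was at 1.98, 2.73 and 1.98 FPKM, against 0.0725 FPKM in 1 control library and a listed value of 0 in the other 2. Its rise of 1.65 (SE 0.144, limma adjusted p = 1.67e-07) was 1.44 against the knockdown's empty vector. TWIST2 passed the filter partly through this group, so this rise and its p-value had in part to arise. In SH-SY5Y overexpression it stayed low, at 0.0820, 0.0659 and 0.266 FPKM, against 0.0668, 0.126 and 0 FPKM in its control. That change was 0.09 with an interval from -0.21 to 0.40 (limma adjusted p = 0.672), and the lines differed by 1.56 (limma adjusted p = 9.16e-06). Knockdown and overexpression of NDUFS6 in SK-N-BE(2) thus both had TWIST2 above their own controls.

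TWIST1 in SK-N-BE(2) overexpression was at 56.1, 67.8 and 60.9 FPKM, against 46.1, 46.3 and 44.1 FPKM in its control, a rise of 0.42 (SE 0.0654, limma adjusted p = 0.000113). Against the knockdown's empty vector, at 78.0 to 82.1 FPKM, the sign was the opposite, -0.38 (limma adjusted p = 0.000128). The overexpression libraries thus lay between the line's 2 controls, without overlap with either. In SH-SY5Y overexpression TWIST1 was at 77.2 ± 2.2 FPKM, against 78.5 ± 2.0 FPKM (SD, n = 3 each), a change of -0.02 (interval -0.16 to 0.11, limma adjusted p = 0.821). The change of SK-N-BE(2) exceeded that of SH-SY5Y by 0.45 (limma adjusted p = 0.000816). With the knockdown controls as the base that difference had the opposite sign, -0.32 (adjusted p = 0.00695).

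SNAI1 in SK-N-BE(2) overexpression was at 4.85, 6.31 and 5.71 FPKM, against 5.02, 3.77 and 3.87 FPKM in its control. The ranges overlapped, and the rise of 0.34 (SE 0.126, limma adjusted p = 0.0456) stood near the threshold. The call was lost under TPM scaling (limma adjusted p = 0.0664), when low genes were kept in (adjusted p = 0.122) and in a fit of just the groups compared (adjusted p = 0.129). It was also lost without SK-N-BE(2) overexpression replicate 2 or 3 or without control replicate 2 or 3, with changes from 0.27 to 0.33 and limma adjusted p from 0.109 to 0.195. In SH-SY5Y overexpression SNAI1 was at 2.66, 2.17 and 2.75 FPKM, against 4.56, 2.95 and 4.16 FPKM in its control, with no overlap. It fell by 0.46 (SE 0.126, limma adjusted p = 0.00811), which without control replicate 1 became -0.36 (adjusted p = 0.0567). The lines differed by 0.81 (limma adjusted p = 0.00153). Against the knockdown's empty vector the changes were 0.47 in SK-N-BE(2) and -0.67 in SH-SY5Y, and both passed (limma adjusted p = 0.00576 and 0.000135).

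SNAI2 was not moved past the threshold by overexpression. It was at 3.59 ± 0.14 FPKM, against 3.57 ± 0.20 FPKM, in SK-N-BE(2), and at 2.28 ± 0.38 FPKM, against 2.28 ± 0.31 FPKM, in SH-SY5Y (SD, n = 3 each). The intervals of the changes ran from -0.18 to 0.20 and from -0.19 to 0.19 (limma adjusted p = 0.963 and 0.992). With the knockdown control as the base the changes were 0.37 and -0.35 (limma adjusted p = 0.00342 in the MYCN-amplified line and 0.00313 in SH-SY5Y), and the 2 controls themselves differed in both lines. The difference between lines was 0.01 with the own controls (adjusted p = 0.955) and 0.71 with the knockdown controls as the base (adjusted p = 0.000113).

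ZEB1 in SH-SY5Y overexpression was at 9.10, 8.87 and 9.03 FPKM, against 11.7, 11 and 10.9 FPKM in its control, apart from it. It fell by 0.28 (SE 0.0906, limma adjusted p = 0.0202), which without overexpression replicate 2 or control replicate 1 was -0.28 and -0.26 (adjusted p = 0.0560 and 0.0737). ZEB1 also lost this call under TPM scaling (limma adjusted p = 0.0666) and with no filter on low values (adjusted p = 0.0541). In SK-N-BE(2) it was at 16.1, 11.6 and 13.5 FPKM, against 15.9, 15.4 and 16.9 FPKM, a change of -0.22 that did not pass (limma adjusted p = 0.0685). Without SK-N-BE(2) overexpression replicate 1, the highest of its group, the change was -0.34 and passed (adjusted p = 0.00409). The change of SK-N-BE(2) less that of SH-SY5Y was 0.06 (interval -0.21 to 0.33, limma adjusted p = 0.746), and 0.34 with the knockdown controls as the base (adjusted p = 0.0324).

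ZEB2 in SK-N-BE(2) overexpression was at 2.78, 2.06 and 2.26 FPKM, against 3.05, 2.73 and 2.91 FPKM in its control, with overlapping ranges. It fell by 0.22 (SE 0.0682, limma adjusted p = 0.0225), and the call was lost without overexpression replicate 2 or 3 or control replicate 1 or 3 (adjusted p from 0.0643 to 0.153). ZEB2 also lost this call in a fit of just the groups compared (limma adjusted p = 0.185). In SH-SY5Y it was at 4.2 ± 0.15 FPKM, against 3.77 ± 0.26 FPKM (SD, n = 3 each), a change of 0.12 (interval -0.02 to 0.27, adjusted p = 0.182). The lines differed by -0.34 (limma adjusted p = 0.00928). Against the knockdown's empty vector the SH-SY5Y change was 0.30 and passed (limma adjusted p = 0.000779). The SK-N-BE(2) change was then -0.17 and did not pass (adjusted p = 0.0594).

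The interaction test with each construct's own control counts these differences. For knockdown 2 of the 6 tested factors had a more positive change in SK-N-BE(2), SNAI2 and ZEB1, where 29.5% of all genes did, and TWIST1 had a more negative one, where 26.3% of all genes did. For overexpression TWIST1, TWIST2 and SNAI1 had a more positive change in SK-N-BE(2), 3 of 6 where 18.3% of all genes did, and ZEB2 a more negative one, where 18.5% of all genes did. TWIST2 adds no evidence here either, since its high SK-N-BE(2) overexpression libraries helped it pass the filter.

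The 2 empty vectors of a line also differed for some factors. In SK-N-BE(2) the knockdown control stood above the overexpression control for 1 of 6, TWIST1, where 15.5% of all genes were higher, and below it for 1, SNAI2, where 19.0% were lower. TWIST1 was 0.80 higher (SE 0.0654, limma adjusted p = 1.10e-08), at 80.1 ± 2.1 FPKM against 45.5 ± 1.2 FPKM, and SNAI2 was -0.36 (adjusted p = 0.00460), at 2.59 ± 0.51 FPKM against 3.57 ± 0.20 FPKM (SD, n = 3 each). The TWIST1 gap between these controls was larger than its change in SK-N-BE(2) overexpression. In SH-SY5Y the knockdown control was higher for 2 of 6, TWIST2 and SNAI2, where 18.4% of all genes were, and lower for ZEB2, where 17.8% were. The differences were 0.56 for TWIST2 (limma adjusted p = 0.00464), 0.34 for SNAI2 (adjusted p = 0.00585) and -0.18 for ZEB2 (adjusted p = 0.0444). The ZEB2 call was lost without knockdown control replicate 1 or 2 or overexpression control replicate 2 or 3 (adjusted p from 0.0693 to 0.185). It was also lost under TPM scaling (limma adjusted p = 0.0835), with no filter on low values (adjusted p = 0.0842) and with a pseudocount of 0.1 (adjusted p = 0.0584).

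Between the lines, the empty vector controls of SK-N-BE(2) were set against those of SH-SY5Y, 6 libraries each. ZEB1 was higher in SK-N-BE(2), 1 of 6 where 33.5% of all genes were, and TWIST1, TWIST2 and ZEB2 were lower, 3 of 6 where 43.8% were. The differences were 0.35 for ZEB1 (limma adjusted p = 5.63e-05), -0.39 for TWIST1 (adjusted p = 1.73e-07), -0.23 for ZEB2 (adjusted p = 0.000258) and -0.23 for TWIST2 (adjusted p = 0.0491). For TWIST1 the SK-N-BE(2) knockdown control, at 78.0 to 82.1 FPKM, overlapped both SH-SY5Y controls, at 76.2 to 85 FPKM, and the overexpression control, at 44.1 to 46.3 FPKM, lay below them. TWIST2 lost its call when any 1 of several control libraries was left out (adjusted p up to 0.130). The same held with no filter on low values (limma adjusted p = 0.0982), median-of-ratios scaling (adjusted p = 0.0679) and a replicate block (adjusted p = 0.056). SNAI1 and SNAI2 differed by -0.07 and 0.13 and did not pass (limma adjusted p = 0.491 and 0.0729). SNAI2 passed without SK-N-BE(2) knockdown control replicate 2, at 0.19 (adjusted p = 0.00622), or without SH-SY5Y overexpression control replicate 3, at 0.16 (adjusted p = 0.0340).

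Ranked by mean, TWIST1 was lowest in SK-N-BE(2) knockdown and next lowest in that line's overexpression control, each apart from its neighbour. SNAI1 was highest in SH-SY5Y knockdown, then in SK-N-BE(2) knockdown, and SNAI2 in the reverse order, with these groups apart from each other and from the rest. TWIST2 was highest in SK-N-BE(2) overexpression, SH-SY5Y knockdown and SK-N-BE(2) knockdown, whose ranges overlapped from one to the next. ZEB1 was highest in SK-N-BE(2) knockdown and lowest in SH-SY5Y knockdown, each apart from its neighbour in the order. For ZEB2, SH-SY5Y overexpression, knockdown and overexpression control came first and overlapped one another in turn, and all SK-N-BE(2) groups lay at the low end.

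PRRX1, MEOX1, RUNX1 and RUNX2 stayed at or under 1.11 FPKM in every library and were not tested with the rest. PRRX1 was at 0.883, 1.04 and 1.11 FPKM in SH-SY5Y knockdown, against 0.556, 0.216 and 0.499 FPKM in its control, and at 0.130 FPKM or less in every SK-N-BE(2) library. Its SH-SY5Y knockdown libraries lay above all other libraries. With no filter on low values the change was 0.50 (limma adjusted p = 1.75e-05).

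RUNX1 was at 0.625, 0.591 and 0.731 FPKM in SH-SY5Y knockdown, against 0.473, 0.432 and 0.465 FPKM in its control, a change of 0.18 with no filter (limma adjusted p = 0.00131). The SH-SY5Y controls differed more, by 0.37 (adjusted p = 9.62e-07), with 0.121 to 0.129 FPKM in the overexpression control. In SK-N-BE(2) RUNX1 stayed at 0.0268 to 0.164 FPKM. RUNX2 was at 0.191, 0.0971 and 0.101 FPKM in SK-N-BE(2) knockdown, against 0.0328, 0 and 0.00588 FPKM in its control (0.16, limma adjusted p = 0.0308 with no filter). In SH-SY5Y knockdown RUNX2 had 0.139 to 0.250 FPKM, against 0.154 to 0.374 FPKM, with overlapping ranges. MEOX1 was at 0.0890, 0.113 and 0.114 FPKM in SK-N-BE(2) knockdown and was listed at 0 in all 3 libraries of its control. In SH-SY5Y knockdown MEOX1 had 0.0855 to 0.148 FPKM, against 0.0593 to 0.11 FPKM, and it was listed at 0 in SH-SY5Y overexpression. At such levels the number of fragments behind a value is small and is not known.

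Some rows share their place with another gene, and no source used here says whether counting used strand. TWIST1 (chr7:19020991-19117672, minus strand, GRCh38, GENCODE 29) shares exon sequence with the antisense gene AC003986.2 (chr7:19112474-19114271). AC003986.2 was called in the same direction as TWIST1 in 3 comparisons, at 3.67 FPKM against 8.81 FPKM in SK-N-BE(2) knockdown, 3.79 against 5.40 FPKM in SH-SY5Y knockdown and 8.47 against 6.47 FPKM in SK-N-BE(2) overexpression. ZEB1 (chr10:31318495-31529814, plus strand) shares exon sequence with ZEB1-AS1 (chr10:31206278-31320447). ZEB1-AS1 was lower in both knockdowns, at 2.57 against 4.37 FPKM in SK-N-BE(2) and at 2.31 against 4.38 FPKM in SH-SY5Y, so in SK-N-BE(2) it went opposite to ZEB1. ZEB2-AS1, on the opposite strand of ZEB2, did not exceed 0.240 FPKM. The pseudogene SNAI1P1 was at 0.791 to 1.02 FPKM in SH-SY5Y overexpression, where SNAI1 was lowest, against 0.344 to 0.488 FPKM in its control. How reads were divided between these pairs was not tested. SNAI1 (chr20:49982999-49988886, plus strand), TWIST2 (chr2:238848032-238910543, plus strand) and ZEB2 (chr2:144364364-144524583, minus strand) are protein-coding genes of the same annotation.

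By the transcripts that the factors and their partners are known to act on, knockdown went with more mesenchymal genes called higher than lower. Of 17 tested mesenchymal target genes 11 rose and 3 fell in SK-N-BE(2) knockdown (median 0.37), where 27.4% of all tested genes rose and 28.3% fell. In SH-SY5Y knockdown 12 rose and 1 fell (median 0.65), where 26.3% of all genes rose and 29.6% fell. In SK-N-BE(2) SPARC, a matricellular protein, had 91.0 FPKM, against 33.5 FPKM in its control. The collagen gene COL1A1 had 11.5 FPKM, against 5.26 FPKM. In SH-SY5Y VIM, the intermediate filament vimentin, had 445 FPKM, against 96.4 FPKM, and CDH2, N-cadherin, had 82.4 FPKM, against 27.4 FPKM. SPARC there had 100.9 FPKM, against 46.5 FPKM.

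In SH-SY5Y the empty vectors themselves differed for this list. The knockdown control exceeded the overexpression control for 15 of the 17 genes, where 18.4% of all genes were higher, with a median of 1.32, TNC, the matrix protein tenascin C, at 38.9 FPKM against 7.50 FPKM, COL5A1 at 13.0 against 2.00 FPKM and COL1A1 at 9.07 against 2.59 FPKM. Overexpression in SH-SY5Y had 7 genes higher and 1 lower against its own control (median 0.10), where 15.4% and 17.2% of all genes were. Against the knockdown's empty vector 1 was higher and 15 lower (median -1.29). On that base 8809 of 15902 genes were called in either direction, 47.8% of these calls higher. In SK-N-BE(2) overexpression 6 rose, VIM at 310.6 FPKM against 237 FPKM among them, and 2 fell, FN1, fibronectin, at 7.45 against 12.4 FPKM among them (median 0.09). Of all genes 12.9% rose and 16.8% fell in that comparison.

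Markers of fibroblasts and stroma moved beside these genes. Their summed level was 278 to 290 FPKM in SH-SY5Y knockdown, against 143 to 148 FPKM in its control and 63.9 to 67.2 FPKM in the overexpression control. Of the 9 tested, 8 rose in SH-SY5Y knockdown and 1 fell, where 26.3% of all genes rose and 29.6% fell. None of the 10 listed was at or under 0.1 FPKM throughout. In SK-N-BE(2) knockdown the sum was 176 to 204 FPKM, against 161 to 168 FPKM. There 2 of 9 were higher and 2 lower, where 27.4% of all genes were higher and 28.3% lower. COL1A1 and COL1A2 stand in both lists, and the part of such markers in the results was not tested. Of the Schwann cell markers SOX10, FOXD3, CDH19 and MBP were at or under 0.1 FPKM in every library. The same was true of CSF1R, CD3E, AIF1 and TYROBP among immune markers, PECAM1, CDH5, TEK and TIE1 among endothelial markers, and KRT5, KRT14 and GRHL2 among epithelial markers.

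**Figure D4:**
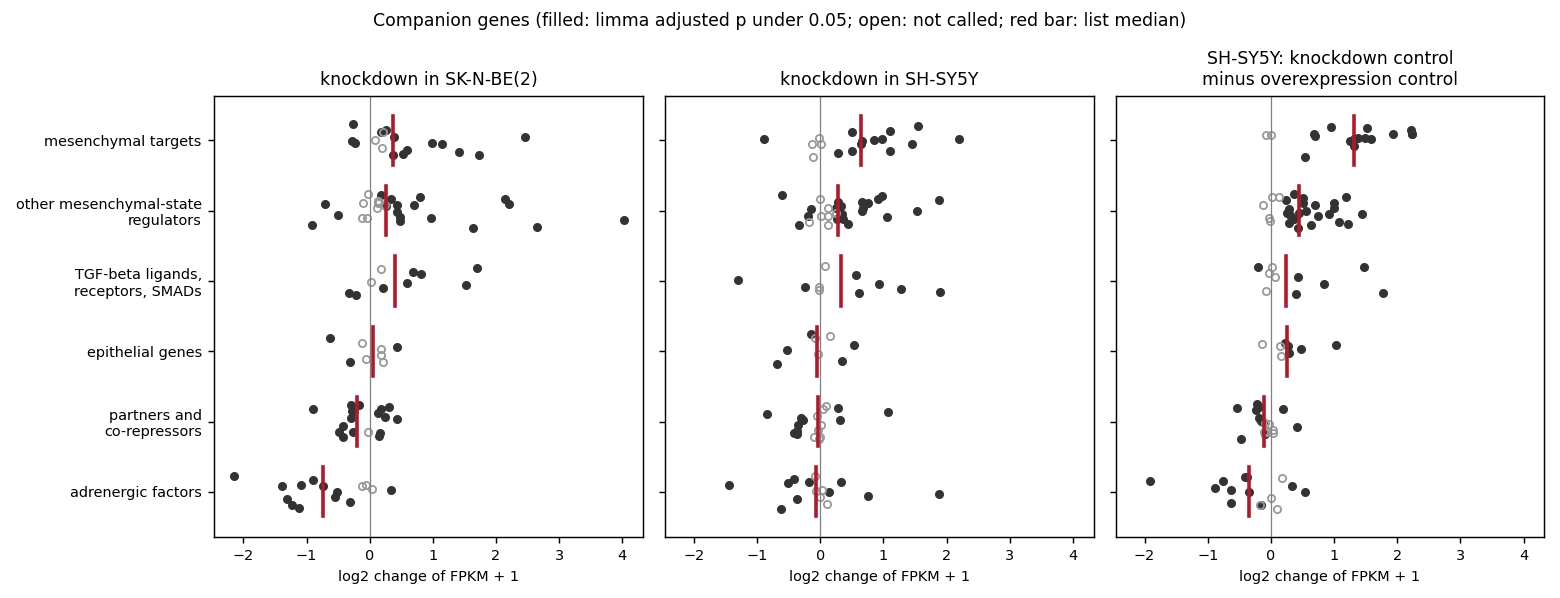
Change on the log2(FPKM + 1) scale (horizontal axes) of each tested gene in 6 lists (rows) after knockdown in each line, and between the empty vectors of SH-SY5Y as knockdown control minus overexpression control. Filled points passed limma at an adjusted p under 0.05, open points did not, and red bars are list medians. Most mesenchymal targets lie to the right of 0 in all 3 panels, furthest between the SH-SY5Y controls at a median of 1.32, and most adrenergic factors lie to the left in SK-N-BE(2) knockdown.

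Other regulators named for the mesenchymal neuroblastoma state, 27 of them tested, had 15 higher and 3 lower in SK-N-BE(2) knockdown (median 0.25), beside 27.4% and 28.3% of all genes. In SH-SY5Y knockdown 16 were higher and 4 lower (median 0.28), beside 26.3% and 29.6% of all genes. In SK-N-BE(2) the AP-1 subunit FOSL1 had 16.5 FPKM, against 0.0730 FPKM, the early growth response factor EGR3 had 3.92 FPKM, against 0.11 FPKM, and the homeobox factor SIX4 had 2.98 FPKM, against 0.278 FPKM. In SH-SY5Y the Hippo pathway coactivator YAP1 had 8.18 FPKM, against 2.16 FPKM, IFI16, a DNA sensor, had 2.05 FPKM, against 0.465 FPKM, and the T-box factor TBX18 had 1.06 FPKM, against 0.0498 FPKM. Overexpression gave 5 higher and 8 lower in SK-N-BE(2), beside 12.9% and 16.8% of all genes. In SH-SY5Y it gave 2 higher and 10 lower, beside 15.4% and 17.2% of all genes. The receptor NOTCH3 had 2.03 FPKM there, against 6.0 FPKM. The SH-SY5Y knockdown control was higher than the overexpression control for 22 of the 27, beside 18.4% of all genes. SOX9 was among them, at 6.13 against 1.65 FPKM.

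Factors of the adrenergic state, 15 tested, had 1 higher and 11 lower in SK-N-BE(2) knockdown (median -0.73), against all-gene shares of 27.4% and 28.3%. The basic helix-loop-helix factor HAND2 had 80.0 FPKM, against 208.6 FPKM in its control, and the LIM homeobox factor ISL1 had 17.4 FPKM, against 44.4 FPKM. In SH-SY5Y knockdown 4 rose and 6 fell (median -0.07), against all-gene shares of 26.3% and 29.6%. There the T-box factor TBX2 had 66.5 FPKM, against 17.3 FPKM, ISL1 had 60.6 FPKM, against 35.4 FPKM, and GATA2 had 51.7 FPKM, against 142 FPKM. Overexpression gave 8 higher and 2 lower in SK-N-BE(2), where 12.9% and 16.8% of all genes were. In SH-SY5Y it gave 2 higher and 5 lower, where 15.4% and 17.2% were, but 10 higher and 3 lower against the knockdown's empty vector (median 0.35). On that base 8809 of 15902 genes were called in either direction, and 47.8% of these calls were higher. The SH-SY5Y knockdown control was itself higher than the overexpression control for 2 of these factors and lower for 9. Of all genes 18.4% were higher and 17.8% lower there.

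Ligands, receptors and SMADs of the TGF-beta pathway, which is known to induce SNAI and ZEB genes, had 6 of 10 tested genes higher and 2 lower in SK-N-BE(2) knockdown, and 5 higher and 2 lower in SH-SY5Y knockdown. The all-gene shares were 27.4% and 28.3% in the first and 26.3% and 29.6% in the second. In SK-N-BE(2) the ligand TGFB1 had 4.84 FPKM, against 0.799 FPKM, and the co-repressor SKIL had 14.9 FPKM, against 4.50 FPKM. In SH-SY5Y the ligand TGFB3 had 4.78 FPKM, against 0.552 FPKM, while TGFB2 had 0.941 FPKM, against 3.78 FPKM. The inhibitory SMAD7 was higher in both, at 3.85 against 2.01 FPKM in SK-N-BE(2) and at 10.2 against 4.89 FPKM in SH-SY5Y.

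Of 24 epithelial genes that SNAI and ZEB factors are known to repress, 8 reached the level for testing, and CDH1, ESRP1 and GRHL2 did not. In SK-N-BE(2) knockdown 1 rose and 2 fell, the desmosomal gene PKP2 at 4.92 against 8.12 FPKM among them, and in SH-SY5Y knockdown 2 rose and 3 fell. Of all genes 27.4% were higher and 28.3% lower in the first and 26.3% and 29.6% in the second. Against the overexpression control SH-SY5Y knockdown had 5 higher and 2 lower. There 9259 of 15902 genes were called in either direction, 45.5% of these calls higher. JUP, junctional plakoglobin, moved apart in the lines, at 13.4 against 16.9 FPKM in SK-N-BE(2) knockdown and at 15.2 against 10.2 FPKM in SH-SY5Y knockdown. Overexpression gave 1 lower in SK-N-BE(2), the tight junction gene TJP1 at 4.64 against 7.24 FPKM, and 4 lower in SH-SY5Y. Of all genes 16.8% were lower in SK-N-BE(2) and 17.2% in SH-SY5Y.

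Partners and co-repressors of the factors, all 18 tested, had 7 higher and 10 lower in SK-N-BE(2) knockdown and 3 higher and 7 lower in SH-SY5Y knockdown. All-gene shares were 27.4% higher and 28.3% lower in SK-N-BE(2), and 26.3% and 29.6% in SH-SY5Y. The Groucho-family co-repressor TLE1 was lower in both, at 4.02 against 8.34 FPKM in SK-N-BE(2) and at 6.29 against 12.1 FPKM in SH-SY5Y, while TLE4 was higher in SH-SY5Y, at 12.0 against 5.17 FPKM. TCF3, an E protein that pairs with TWIST factors, had 19.2 FPKM in SK-N-BE(2) knockdown, against 27.2 FPKM. Of 10 ubiquitin ligases and kinases that act on SNAI, TWIST or ZEB proteins, 4 rose and 3 fell in SK-N-BE(2) knockdown and 2 rose and 6 fell in SH-SY5Y knockdown. The ligase SIAH1 was higher in both, at 7.06 against 4.71 FPKM in SK-N-BE(2) and at 5.76 against 3.43 FPKM in SH-SY5Y. The paralogue PRRX2 had 5.45 FPKM in SH-SY5Y knockdown, against 2.74 FPKM (0.78, limma adjusted p = 1.56e-07), and of 10 bone and cartilage genes downstream of RUNX2 only ALPL and SPP1 were tested, both higher in SK-N-BE(2) knockdown and both lower in SH-SY5Y knockdown.

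Genes most like each factor were ranked by Pearson's r over the 24 libraries after each line's mean was taken off. The points share cultures and constructs and fall into clusters by group, so r describes these libraries only. SERPINH1 (r = 0.978), RCN1 (r = 0.974) and KLF6 (r = 0.974) were nearest to SNAI2, and MYLIP (r = 0.955), ENG (r = 0.949) and ZYX (r = 0.946) to SNAI1. ALDH1L2 (r = 0.968), ZDBF2 (r = 0.941) and PLCXD2 (r = 0.925) were nearest to ZEB1, and C21orf58 (r = 0.944), CDCA3 (r = 0.933) and FRZB (r = 0.932) to TWIST1. PLOD1 (r = 0.918), TRIM47 (r = 0.915) and HGF (r = 0.900) were nearest to TWIST2, and UPF2 (r = 0.915), GULP1 (r = 0.883) and SOS2 (r = 0.882) to ZEB2. As an example, SERPINH1, a collagen chaperone, had 60.4 FPKM in SK-N-BE(2) knockdown, against 13.6 FPKM in its control, and 21.5 FPKM in SH-SY5Y knockdown, against 8.57 FPKM. ALDH1L2, a mitochondrial folate enzyme, had 14 FPKM in SK-N-BE(2) knockdown, against 4.78 FPKM, and 0.516 FPKM in SH-SY5Y knockdown, against 1.76 FPKM.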

How the data were processed

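Total RNA was sequenced from 24 strand-specific libraries in 8 groups of 3. Per the submitters' processing notes, FastQC 0.11.2, STAR and StringTie 1.3.1c were used with hg38; no source used here gives the counting settings. The table deposited by the authors holds FPKM per gene (60564 rows). Among genes with a single annotated transcript, low values times gene length in kb had a most frequent value of 0.02675 to 0.03575 per library. Whether low values were whole multiples of such a step was not tested. No reads were recovered and depth is unknown, so the spread between 3 libraries is the measure of precision.

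The 15903 genes that reached 1 FPKM in 3 or more libraries were fitted as log2(FPKM + 1) with limma 3.58.1 (trend, robust; R 4.3.3) in 1 model of all libraries (16 residual degrees of freedom). P-values are two-sided and Benjamini-Hochberg adjusted over all tested genes, and shares over all genes leave out NDUFS6. The fit was tested on simulated data. Gene positions come from GENCODE 29, which holds 58457 of the rows. Confidence intervals are 95%. Named were all 10 factors, NDUFS6, up to 3 called genes of smallest adjusted p per list and comparison, and the 3 genes most like each tested factor. The genes overlapping a factor, the SNAI1 pseudogene and the untested CDH1, ESRP1 and GRHL2 were named outside that rule, after their values were seen. Some genes that the rule names are not reported here. Factors and lists were chosen with earlier results of these data known. Alternatives were the pseudocount, filter, scaling, libraries in the fit, moderation, a block for the replicate number, each library left out, and the line's other empty vector.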

Additional observations from a re-analysis of the deposited data

Results flagged for a closer look

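Changes of all 6 tested factors differed in at least 1 construct between the lines by the interaction test of limma (SK-N-BE(2) minus SH-SY5Y, log2(FPKM + 1) scale, 3 libraries a group). Such differences were common: of 15902 genes, 8873 were called after knockdown and 5849 after overexpression. NDUFS6 itself also changed by different amounts in the lines, and TWIST2 was tested only through groups in which it was high. After knockdown the difference was 1.10 for ZEB1 (adjusted p = 4.01e-07), -0.78 for TWIST1 (adjusted p = 5.12e-07) and 0.44 for SNAI2 (adjusted p = 0.00743). ZEB1 rose in SK-N-BE(2) and fell in SH-SY5Y, while TWIST1 fell and SNAI2 rose in both. After overexpression the difference was 1.56 for TWIST2 (adjusted p = 9.16e-06), 0.81 for SNAI1 (adjusted p = 0.00153), 0.45 for TWIST1 (adjusted p = 0.000816) and -0.34 for ZEB2 (adjusted p = 0.00928). The empty vectors themselves differed for TWIST1 and SNAI2 (-0.36) in SK-N-BE(2) and for TWIST2, ZEB2 and SNAI2 (0.34) in SH-SY5Y. With each line's other empty vector, an alternative chosen after seeing the data, the knockdown difference was 0.82 for ZEB1 (adjusted p = 1.69e-05), -0.01 for TWIST1 (adjusted p = 0.928) and -0.26 for SNAI2 (adjusted p = 0.0920). The overexpression difference was then 1.90 for TWIST2 (adjusted p = 1.86e-07), 1.15 for SNAI1 (adjusted p = 2.08e-05), -0.32 for TWIST1 (adjusted p = 0.00695) and -0.47 for ZEB2 (adjusted p = 0.000383).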

How the results depend on the processing

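The knockdown calls of the factors kept their direction under every alternative run, and only ZEB2 in SH-SY5Y lost its call, against the other empty vector. Against that vector 2 changes were reversed, TWIST1 in SK-N-BE(2) overexpression (-0.38) and TWIST2 in SH-SY5Y overexpression (-0.47), and so were 2 differences between lines, SNAI2 after knockdown (-0.26) and TWIST1 after overexpression (-0.32); the cause was not tested. That setting was chosen after seeing the data for the differences between lines. The number of factors called in SK-N-BE(2) overexpression was 4, and 2 when the fit held just the groups compared, where all genes called fell to 966, against 4715. In SH-SY5Y overexpression it was 2, and 1 with no filter, 1 with TPM scaling and 5 against the other empty vector, where all genes called were 8809, against 5185. Between the SH-SY5Y controls it was 3, and 5 with no filter and 1 under a filter on a mean of 5 FPKM. Of the interaction and line counts, the 3 of knockdown became 7 with no filter, the 4 of overexpression 2 at 5 FPKM, and the 4 between lines 7 with no filter and 2 at 5 FPKM. No filter tests 10 factors and the 5 FPKM filter tests 4. With each library left out the counts ran from 2 to 5 in SK-N-BE(2) overexpression, 0 to 2 in SH-SY5Y overexpression, 2 to 3 between SH-SY5Y controls and 3 to 4 for the knockdown difference, 3 to 5 between lines, and stayed at 5 and 6 in the knockdowns. At 5 FPKM fewer genes are tested, and all counts of genes called fell with that.

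TPM scaling moved the share of calls that were higher to 60.8% (49.3% as reported) in SK-N-BE(2) knockdown, 35.8% (47.0%) in SH-SY5Y knockdown, 32.2% (43.4%) in SK-N-BE(2) overexpression, 25% (45.1%) between its controls, 69.5% (52.8%) for the knockdown difference and 38.1% (49.8%) for the overexpression difference. It moved the median of all genes for the knockdown difference to 0.16, against 0.01. No called gene of the lists changed sign under TPM or median-of-ratios scaling.

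Deviations of same-numbered libraries of a construct and its control had r from -0.08 to 0.37 over genes, not all above 0.1 in any comparison. The largest were in SK-N-BE(2) overexpression, at 0.141 and 0.37 for replicates 1 and 2. Libraries of different number were not compared, so whether the replicate numbers pair libraries is not known. With the replicate number as a block the counts were 5, 6, 4 and 2 in the 4 construct comparisons, while SNAI1 in SK-N-BE(2) overexpression (adjusted p = 0.0530) lost its call and ZEB1 there (adjusted p = 0.0391) gained one. FPKM without counts gives no depth, so precision at low levels (PRRX1, MEOX1, RUNX1, RUNX2, TWIST2) is unknown beyond the spread of 3 libraries.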
